A study of Mus musculus with 6 samples.

Results

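The enzymes that free arachidonic acid and turn it into leukotrienes, together with the leukotriene receptors, were examined in bone marrow-derived macrophages (BMDMs) that had been cultured with ID8 tumour cells. The set was 10 genes, chosen by symbol for their place in the pathway: Pla2g4a, Pla2g15, Pla2g7, Alox5, Alox5ap, Alox15, Lta4h, Ltc4s, Cysltr1 and Ltb4r1. All 10 were present among the 54532 genes of the expression table, and 8 of them were expressed highly enough to be tested, which required at least 1 FPKM (fragments per kilobase of transcript scaled to library depth) in at least 3 of the 6 libraries. Across all genes 13441 passed this filter.

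ID8 is a mouse ovarian cancer cell line, and the BMDMs came from the bone marrow of young adult C57BL/6 mice, without any named allele or deletion. In 1 group (cisplatin, n = 3) the ID8 cells had been treated beforehand with cisplatin at 40 µM, a DNA-crosslinking platinum chemotherapy, and in the other (PBS, n = 3) with phosphate-buffered saline; the macrophages of both groups shared the contact with ID8 cells. Poly(A) RNA was sequenced from the macrophage side of each co-culture, whose length was not stated, and the methods call these cells monocytes without naming a growth factor. Neither macrophages alone nor ID8 cells alone were analysed here, and the methods speak of biological replicates without saying whether the 3 libraries of a group came from separate mice or cultures, so that p-values measure the spread between these libraries, which may be technical.

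Leukotrienes are short-range lipid signals of myeloid cells. A cytosolic phospholipase releases arachidonic acid from membranes, 5-lipoxygenase converts it into the unstable epoxide leukotriene A4 with the help of the membrane protein FLAP, and the epoxide is then either hydrolysed to the neutrophil attractant leukotriene B4 or joined to glutathione to give the cysteinyl leukotrienes, which contract airway muscle and make vessels leak. A separate lipoxygenase, the product of Alox15, oxidises arachidonic and linoleic acid in peritoneal macrophages and eosinophils and makes precursors of lipoxins.

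RefSeq promoters (build GRCm38.p6) were found for 7 of the 10 genes, and none was matched for Alox5ap, Alox15 or Cysltr1. The 250 bases before the annotated start were searched on both strands for the short kappaB consensus, the PU.1-like motif GAGGAAG, the AP-1 motif TGANTCA and the core of the interferon-stimulated response element. The 3 promoters with a match are shown because they belong to the 5-lipoxygenase gene, the hydrolase that follows it and the receptor of their product; each is written 5′ to 3′ on the strand of its gene, with the matched letters in capitals.
Alox5, chr6:116461179-116461428, minus strand: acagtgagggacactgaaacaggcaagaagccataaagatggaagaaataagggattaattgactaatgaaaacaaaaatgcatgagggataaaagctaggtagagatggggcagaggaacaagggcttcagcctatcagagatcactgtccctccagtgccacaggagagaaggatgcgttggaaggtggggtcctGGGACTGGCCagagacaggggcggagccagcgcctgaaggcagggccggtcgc
Lta4h, chr10:93453146-93453395, plus strand: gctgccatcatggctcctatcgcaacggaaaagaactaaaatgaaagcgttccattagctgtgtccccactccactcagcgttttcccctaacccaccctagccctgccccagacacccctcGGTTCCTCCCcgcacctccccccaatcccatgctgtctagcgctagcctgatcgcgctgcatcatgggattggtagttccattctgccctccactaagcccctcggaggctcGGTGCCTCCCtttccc
Ltb4r1, chr14:55765712-55765961, plus strand: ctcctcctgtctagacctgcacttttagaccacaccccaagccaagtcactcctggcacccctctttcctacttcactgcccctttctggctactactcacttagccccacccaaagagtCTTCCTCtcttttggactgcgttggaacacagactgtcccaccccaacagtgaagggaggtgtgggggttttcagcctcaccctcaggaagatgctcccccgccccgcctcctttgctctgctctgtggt
The kappaB letters lay 53 bases before the start of Alox5, and on the opposite strand 128 and 16 bases before the start of Lta4h, whose RefSeq start was 15 bases upstream of the one in the expression table. The PU.1-like letters lay on the opposite strand 130 bases before the start of Ltb4r1. The promoters of Pla2g4a, Pla2g15, Pla2g7 and Ltc4s held none of the 4 motifs. Among 32851 promoters of the same length, 17.6% held the kappaB motif, 10.6% the PU.1-like motif, 6.75% the AP-1 motif and 2.98% the interferon response core; the 7 matched genes had 2, 1, 0 and 0 such promoters, which describes the letters in these windows and no binding. None of the motifs was matched to overlapping letters in the promoters shown.

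The question put to the libraries was how transcripts from the macrophage side differ after contact with cisplatin-treated rather than PBS-treated tumour cells. These libraries also held transcripts that mark other cells, given below, so a change cannot be assigned to macrophages alone. Of the 8 tested genes, 5 rose (Alox15, Alox5ap, Pla2g7, Alox5, Lta4h) and 3 fell (Pla2g4a, Pla2g15, Ltb4r1) at an adjusted p under 0.05 by limma with Benjamini-Hochberg adjustment over all tested genes, and Pla2g7, Alox5 and Lta4h turned negative under 2 other scalings of the libraries. These scalings made the geometric mean of 11 pan-leukocyte genes, or of 4 Y-linked genes (Uty, Kdm5d, Eif2s3y and Ddx3y), equal in all libraries; which cells the Y-linked transcripts came from was not tested, and the labels give no sex for the mice or the line. They moved the median log2 fold change of all tested genes to -0.61 and -0.83, so that 75.1% of all tested genes were lower and 6.86% higher under pan-leukocyte scaling, and 82.6% lower and 3.71% higher under Y-linked scaling. The 5 rises and 3 falls with FPKM as deposited stand against a background in which 32.9% of all tested genes were higher and 35.1% lower, 68.0% in either direction. When the log2 fold change also had to reach 1 in size, only Alox15 was called, against 4.67% of all genes called higher and 11.3% called lower. The study used a threshold of this size on read counts, and here it was applied to log2(FPKM + 1), where Alox5ap had 0.999. The 3 libraries of each group did not overlap for any of the 8, 5 higher and 3 lower, where the same held for 35.2% of all tested genes as higher and 37.2% as lower, 72.4% together. The median log2 fold change of the 8 genes was 0.39 and that of all tested genes -0.0011.

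**Figure D1:**
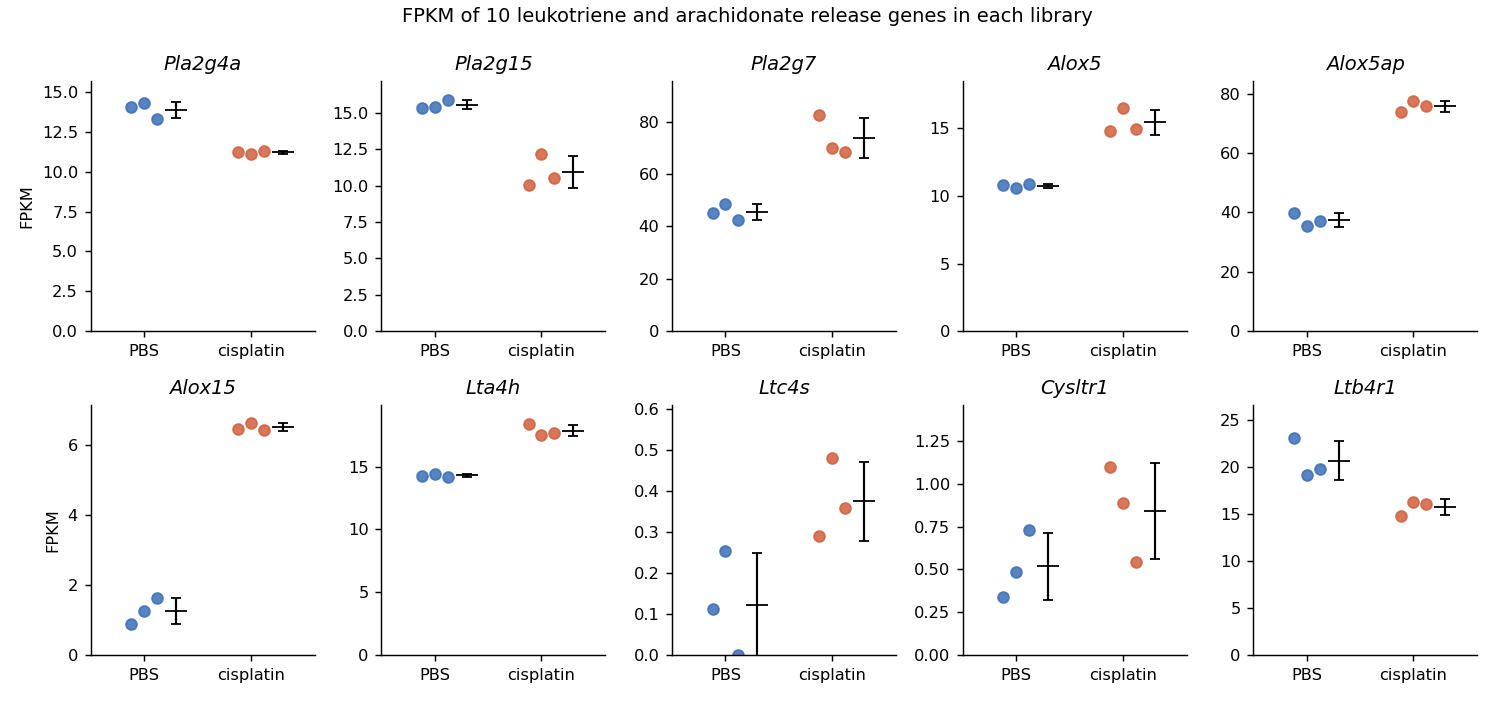
FPKM (vertical axes, from 0, 1 scale per gene) of the 10 genes in the 3 PBS (blue) and 3 cisplatin (orange) libraries, in order of replicate number; bars are the mean ± SD, cut at 0 for Ltc4s. The groups are apart for every gene but Cysltr1; Alox15 goes from at most 1.63 to at least 6.42 FPKM, and Pla2g4a, Pla2g15 and Ltb4r1 are lower with cisplatin.

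The first step of the pathway is release of the fatty acid. Pla2g4a (ENSMUSG00000056220, chr1:149829618-149961290, minus strand) encodes the calcium-dependent cytosolic phospholipase that prefers arachidonate at the middle position of phospholipids. Its FPKM was 14.0, 14.3 and 13.3 in the PBS libraries and 11.2, 11.1 and 11.3 in the cisplatin libraries. The groups did not overlap, and the 3 cisplatin libraries lay within a narrow range below the lowest PBS library. From 13.9 ± 0.499 to 11.2 ± 0.0828 FPKM (SD, n = 3 each), Pla2g4a fell by 0.28 on the log2(FPKM + 1) scale (SE 0.043, limma adjusted p = 0.000884), and had -0.96 under pan-leukocyte and -1.21 under Y-linked scaling, the latter past the fold threshold.

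Pla2g15 (ENSMUSG00000031903, chr8:106150399-106164715, plus strand) encodes a phospholipase that works in the acid of the lysosome and is abundant in alveolar macrophages. It measured 15.3, 15.4 and 15.9 FPKM with PBS and 10.1, 12.1 and 10.6 FPKM with cisplatin, again without overlap. Among the 3 genes that were lower it had the largest change, a fall by 0.48 on the log2 scale (SE 0.069, limma adjusted p = 0.000746), and was called under pan-leukocyte (-1.16) and Y-linked (-1.40) scaling.

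Pla2g7 went the other way. The gene (ENSMUSG00000023913, chr17:43568098-43612201, plus strand) encodes the secreted hydrolase of platelet-activating factor (PAF), a phospholipid mediator made alongside arachidonate, and macrophages are a main source of the enzyme. The PBS libraries held 45.0, 48.6 and 42.6 FPKM and the cisplatin libraries 82.5, 69.8 and 68.6 FPKM. All cisplatin values were above all PBS values, with replicate 1 highest among them. The means were 45.4 ± 3.02 and 73.6 ± 7.67 FPKM (SD, n = 3 each), a log2 fold change of 0.68 (SE 0.082, limma adjusted p = 0.000282), which became -0.038 (adjusted p = 0.717) after scaling by pan-leukocyte genes and -0.30 (adjusted p = 0.00358) after scaling by Y-linked genes. The antisense gene 1700071M16Rik overlaps it and held at most 119 reads in any library against 1918 or more for Pla2g7; no strand setting was stated for the counting, so reads in the overlap cannot be told apart.

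The 5-lipoxygenase step involves a pair of proteins. Alox5 (ENSMUSG00000025701, chr6:116410077-116461178, minus strand), the enzyme itself, had 10.8, 10.6 and 10.9 FPKM with PBS and 14.8, 16.5 and 14.9 FPKM with cisplatin. The groups were apart, and the PBS libraries differed among themselves by far less than the distance between groups. The rise of 0.48 in log2 (SE 0.052, limma adjusted p = 0.000157) turned to -0.20 (adjusted p = 0.00854) under pan-leukocyte scaling and to -0.44 (adjusted p = 0.000888) under Y-linked scaling.

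Alox5ap (ENSMUSG00000060063, chr5:149264767-149288153, plus strand) encodes FLAP, which presents arachidonate to the enzyme at the nuclear membrane. Its libraries read 39.8, 35.4 and 37.0 FPKM with PBS and 73.8, 77.6 and 75.9 FPKM with cisplatin. Every cisplatin library was far above every PBS library, and the mean went from 37.4 ± 2.22 to 75.8 ± 1.88 FPKM (SD, n = 3 each), a ratio of 2.02. On the log2(FPKM + 1) scale the change was 0.999 (SE 0.049, limma adjusted p = 3.44e-06), just short of the fold threshold of 1. Without cisplatin replicate 1 or without PBS replicate 1 it passed that threshold, which brought the called genes of the set to 2; under pan-leukocyte scaling it was 0.28 (adjusted p = 0.000638) and under Y-linked scaling 0.020 (adjusted p = 0.816). The overlapping genes Gm19719 and n-R5s180, on the other strand, held at most 53 reads.

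Because both transcripts were read in the same library, their ratio does not depend on how libraries are scaled. The ratio of Alox5ap to Alox5 was 3.70, 3.35 and 3.41 in the PBS libraries and 4.98, 4.70 and 5.08 in the cisplatin libraries. The groups did not overlap: FLAP transcripts exceeded those of the enzyme by a larger factor in every cisplatin library, with a mean ratio 1.41 times higher (difference in log2 0.50). The exact two-sided permutation test gave p = 0.1, the smallest value it can give for 3 against 3 libraries, so this test cannot reach 0.05 here.

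The largest change of the set belonged to Alox15 (ENSMUSG00000018924, chr11:70344152-70352031, minus strand), the mouse 12/15-lipoxygenase. Its level with PBS was 0.875, 1.26 and 1.63 FPKM, which corresponds to 38, 48 and 62 reads, and with cisplatin 6.44, 6.63 and 6.42 FPKM, or 269, 267 and 260 reads. The cisplatin libraries were close together and all above the PBS libraries, which spread more widely at their low level. The mean FPKM was 5.18 times higher, and the log2 fold change was 1.75 (SE 0.12, limma adjusted p = 1.94e-05), smaller than the FPKM ratio because adding 1 before the logarithm compresses low values. Alox15 was called as higher under every setting tried, also under pan-leukocyte scaling (1.22) and Y-linked scaling (1.03).

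Both enzymes that use leukotriene A4 were measured. Lta4h (ENSMUSG00000015889, chr10:93453411-93484875, plus strand), which hydrolyses it to leukotriene B4 and also cuts the peptide Pro-Gly-Pro, stood at 14.3, 14.4 and 14.2 FPKM with PBS and 18.4, 17.6 and 17.7 FPKM with cisplatin. The libraries were tight in both groups and the groups apart. Its log2 fold change of 0.30 (SE 0.038, limma adjusted p = 0.000369) was the smallest of the 5 rises and turned to -0.39 (adjusted p = 0.000138) under pan-leukocyte scaling and -0.64 (adjusted p = 1.99e-05) under Y-linked scaling.

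Ltc4s (ENSMUSG00000020377, chr11:50236461-50238616, minus strand), the glutathione-joining synthase, was close to undetected. With PBS it had 2, 4 and 0 reads and with cisplatin 5, 8 and 6 reads, and a count of 0 in PBS replicate 3 allows up to 0.191 FPKM, for counting error only. All cisplatin libraries were above all PBS libraries, but none reached 1 FPKM and the gene was not tested; the overlapping antisense gene Gm26542 had up to 14 reads, more than Ltc4s itself. Per length, the hydrolase was therefore far above the synthase in every library, with a lowest Lta4h level of 14.2 FPKM and a highest Ltc4s level of 0.480 FPKM.

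The receptors differed in level. Ltb4r1 (ENSMUSG00000046908, chr14:55765962-55768494, plus strand) encodes BLT1, the high-affinity receptor for leukotriene B4 on myeloid cells, and measured 23.1, 19.2 and 19.8 FPKM with PBS and 14.8, 16.3 and 16.1 FPKM with cisplatin. The groups did not overlap, although PBS replicate 1 stood above the other two. Ltb4r1 fell by 0.37 on the log2 scale (SE 0.077, limma adjusted p = 0.00422), and was called under pan-leukocyte (-1.06) and Y-linked (-1.31) scaling.

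Cysltr1 (ENSMUSG00000052821, chrX:106574346-106603679, minus strand), the receptor for cysteinyl leukotrienes, had 31, 39 and 58 reads with PBS (0.341, 0.487 and 0.727 FPKM) and 96, 75 and 46 reads with cisplatin (1.10, 0.888 and 0.542 FPKM). The groups overlapped, since cisplatin replicate 3 lay below PBS replicate 3, and the gene was not tested because only 1 library reached 1 FPKM; the overlapping gene Gm5127 held at most 8 reads. Its ratio to Ltb4r1 was 0.0148, 0.0254 and 0.0367 with PBS and 0.0744, 0.0544 and 0.0336 with cisplatin, overlapping as well (difference in log2 1.10, exact two-sided permutation p = 0.2). With limma voom on the reads, in an alternative chosen after seeing the data, the log2 fold change of Cysltr1 was 0.82 (adjusted p = 0.0203), and in the fit without a filter 0.28 (adjusted p = 0.304).

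**Figure D2:**
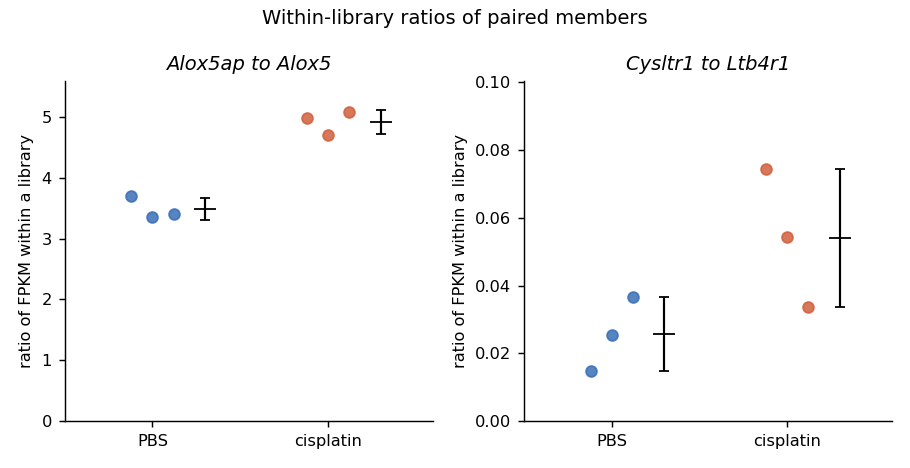
Ratio of FPKM within a library (vertical axes, from 0) for Alox5ap to Alox5 and for Cysltr1 to Ltb4r1 in the 3 PBS (blue) and 3 cisplatin (orange) libraries, with the mean ± SD. The first ratio is at most 3.70 with PBS and at least 4.70 with cisplatin, and the second overlaps between the groups.

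The order of the levels within a group also shifted. With PBS, Pla2g7 was highest, followed by Alox5ap, Ltb4r1, Pla2g15, Lta4h, Pla2g4a, Alox5, Alox15, Cysltr1 and Ltc4s, and only Lta4h and Pla2g4a overlapped as neighbours. With cisplatin, Alox5ap and Pla2g7 shared the top with overlapping libraries, Lta4h came next, and Ltb4r1 and Alox5 overlapped behind it. Pla2g4a and Pla2g15, which also overlapped, followed, and the last 3 places were as with PBS. Averaged over the 6 libraries, Pla2g7 exceeded 94.3% and Alox5ap 93.9% of all tested genes in FPKM, whereas Alox15 exceeded 32.2%.

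The wider pathway was read from a list of 75 further genes, of which 74 were in the table and 43 were tested. Among these, 16 were higher, 23 lower and 4 did not pass, with a median log2 fold change of -0.29, against 32.9% higher and 35.1% lower among all tested genes. With the fold threshold 2 were called higher and 6 lower, against 4.67% and 11.3% of all tested genes. Under pan-leukocyte scaling 4 were higher and 31 lower (all genes 6.86% and 75.1%), and under Y-linked scaling 2 were higher and 36 lower (all genes 3.71% and 82.6%).

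The list of other phospholipases and lipases also held the receptor Pla2r1, which reached 1 FPKM only with PBS, so that the filter fixed its direction. Of the 7 tested genes 6 fell, Pla2r1 among them, where 35.1% of all tested genes were lower. Under either other scaling 6 were lower as well, where 75.1% and 82.6% of all genes were. The exception was Mgll, with a log2 fold change of 0.40 that became -0.084 (adjusted p = 0.539) under pan-leukocyte and -0.25 (adjusted p = 0.071) under Y-linked scaling. Dagla, which makes the arachidonate-containing lipid 2-arachidonoylglycerol, went from 7.97 ± 0.306 to 1.93 ± 0.0516 FPKM (log2 fold change -1.61), and Pla2g12a, a secreted phospholipase, from 8.41 ± 0.987 to 3.41 ± 0.274 FPKM (-1.09). Genes that control release and 5-lipoxygenase were mixed, 4 higher and 5 lower of 9 (all genes 32.9% and 35.1%), and none was called. Under pan-leukocyte and Y-linked scaling 0 were higher (all genes 6.86% and 3.71%), and 7 and 9 lower (all genes 75.1% and 82.6%). Gpx1, a glutathione peroxidase that lowers the peroxides 5-lipoxygenase needs, was the most abundant of these over all 6 libraries, though behind Mapkapk2 and Anxa1 with PBS, and went from 172 ± 2.43 to 271 ± 7.68 FPKM (0.66), which became -0.073 (adjusted p = 0.111) under pan-leukocyte scaling and -0.34 under Y-linked scaling. The 5 other lipoxygenases were all below the filter, and Alox8, the most abundant, averaged 0.201 FPKM with PBS and 0.327 FPKM with cisplatin, so that Alox5 and Alox15 were the tested lipoxygenases.

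Conjugation, export and breakdown of leukotrienes had 4 higher, 3 lower and 2 not passing of 9 tested genes, where 32.9% of all tested genes were higher and 35.1% lower. Under pan-leukocyte scaling 1 was higher and 6 lower (all genes 6.86% and 75.1%), and under Y-linked scaling 0 and 7 (all genes 3.71% and 82.6%). The glutathione transferases Mgst1 (85.4 ± 2.98 to 26.8 ± 0.782 FPKM, log2 fold change -1.64) and Mgst3 (12.7 ± 1.5 to 4.52 ± 1.36 FPKM, -1.34) were called lower. Their relative Mgst2, which can also make leukotriene C4 and was picked out after its values were seen, measured 1.87 ± 0.138 and 4.24 ± 0.139 FPKM and rose by 0.87 in log2, against 0.33 (adjusted p = 0.00281) under pan-leukocyte and 0.13 (adjusted p = 0.206) under Y-linked scaling. At 4.24 FPKM its mean level with cisplatin was above the highest Ltc4s library.

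Of the 9 other lipid mediator receptors, 4 were tested and all were higher, where 32.9% of all tested genes were. Under pan-leukocyte scaling 2 were higher and 0 lower (all genes 6.86% and 75.1%), and under Y-linked scaling 2 were higher and 1, Fpr2, was lower (all genes 3.71% and 82.6%). Cmklr1, a chemerin receptor that also responds to resolvin E1, had the largest change, from 4.04 ± 0.0889 to 27.0 ± 0.839 FPKM (log2 fold change 2.47), and stayed called under pan-leukocyte (1.82) and Y-linked (1.58) scaling. Ptafr, the receptor for the PAF that Pla2g7 degrades, went from 35.7 ± 2.23 to 83.2 ± 1.87 FPKM (1.2), and had 0.48 and 0.22 (adjusted p = 0.0482) under these scalings.

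Genes listed for the return of free fatty acids, arachidonate among them, to phospholipids were lower in 7 of 10 tested cases, higher in 2, and 1 did not pass. How far each of them prefers arachidonate was not considered. Under either other scaling 9 were lower, and 1 and 0 were higher under pan-leukocyte and Y-linked scaling. Among all tested genes 35.1% were lower as deposited and 75.1% and 82.6% under these scalings, and 32.9% were higher as deposited and 6.86% and 3.71% under them. Lpcat4 (24.1 ± 1.85 to 9.05 ± 0.848 FPKM, log2 fold change -1.32) and Acsl4, which prefers arachidonate as its substrate (91.6 ± 3.19 to 39.3 ± 1.93 FPKM, -1.2), were called. Of the 4 other PAF hydrolase genes 1 was higher, 2 were lower and the most abundant, Pafah1b1, had 31.1 ± 1.0 FPKM with PBS and 29.5 ± 1.03 FPKM with cisplatin (limma adjusted p = 0.155), with log2 fold changes of -0.79 under pan-leukocyte and -1.04 under Y-linked scaling. Under these scalings 0 of the 4 were higher, where 6.86% and 3.71% of all genes were, and 3 and 4 were lower, where 75.1% and 82.6% were.

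**Figure D3:**
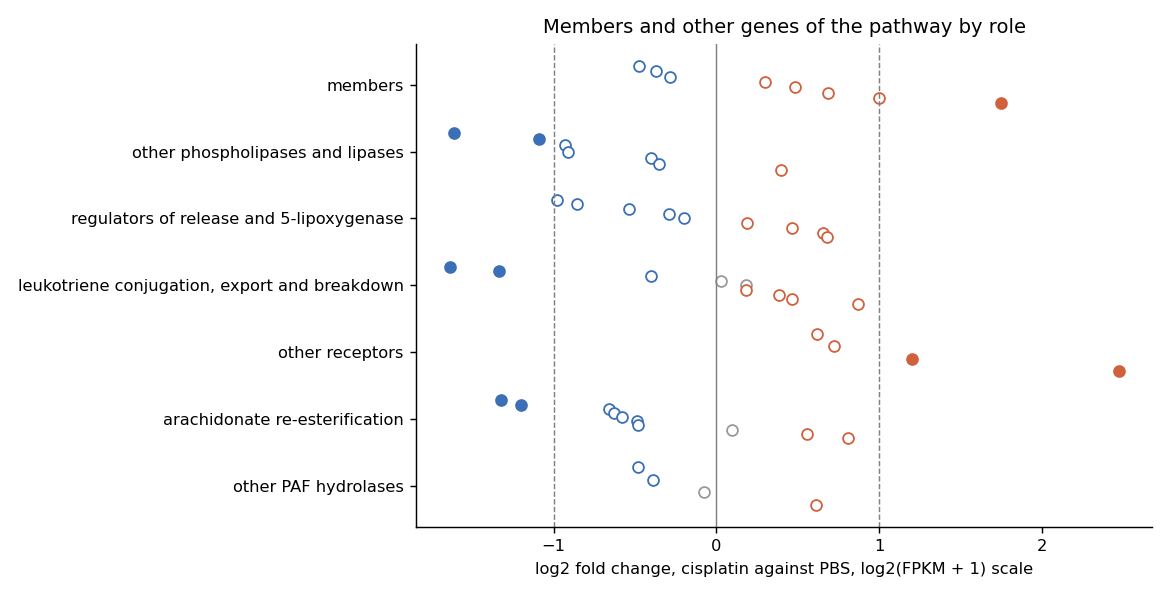
Log2 fold change, cisplatin against PBS, on the log2(FPKM + 1) scale (horizontal axis) of the 8 tested set genes and the 43 tested genes of the wider pathway by role; orange is higher and blue lower at an adjusted p under 0.05, grey did not pass, filled circles passed the fold threshold marked by dashed lines. Phospholipases, listed with the receptor Pla2r1, and re-esterification genes lie mostly to the left, and the 4 other receptors to the right, with Cmklr1 at 2.47 and Dagla at -1.61. The receptor Ltb4r1, shown with the set genes, lies to the left at -0.37. Under pan-leukocyte or Y-linked scaling 2 of the 4 other receptors are higher, and Fpr2 is lower under the latter. Under pan-leukocyte scaling 31 of the 43 genes are lower, as are 75.1% of all genes.

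The libraries also differed in markers of the cells they could hold, and in bulk samples fewer cells of a type and less RNA per cell cannot be told apart. Among all tested genes 32.9% were higher and 35.1% lower as deposited. Under pan-leukocyte scaling these shares were 6.86% and 75.1%, and under Y-linked scaling 3.71% and 82.6%. Of the tested markers, Mertk, Flt3 and Siglecf reached 1 FPKM only with cisplatin and Zbtb46 only with PBS, so that the filter fixed their directions. All 8 macrophage markers were present and higher with cisplatin (summed 1635 to 1647 FPKM with PBS, 4187 to 4341 with cisplatin), namely Adgre1, Csf1r, Cd68, Lyz2, Mertk, Fcgr1, Cd14 and Itgam, though under pan-leukocyte scaling 5 were higher and 1 lower, and under Y-linked scaling 3 were higher and 3 lower. Markers of ID8 and mesothelial cells, led by Krt19 with PBS and by Msln with cisplatin, were lower in 10 of 11 tested cases (1314 to 1417 FPKM with PBS, 249 to 270 with cisplatin), and none of the 17 was at 0 throughout. Of 12 neutrophil markers 11 were higher (4854 to 5013 against 9085 to 9345 FPKM), led by S100a9. Mast cell and basophil markers were higher in 6 of 6 tested cases (123 to 132 against 262 to 281 FPKM), led by Prss34, with Mcpt4 and Tpsab1 at 0; eosinophil markers, led by Prg2, had 2 higher and 2 lower of 5 (76.5 to 83.5 against 41.5 to 46.7 FPKM).

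Dendritic cell markers, led by Ccr7, were higher in 3 and lower in 1 of 4 tested cases (17.5 to 18.9 against 34.9 to 37.3 FPKM), and B cell markers, led by Cd79b, higher in 5 of 5 (190 to 197 against 437 to 447 FPKM). T and NK cell markers, led by Trac with PBS and by Cd8a with cisplatin, had 1 higher of 2 (5.4 to 6.45 against 7.68 to 8.84 FPKM), and platelet markers, led by Itgb3 with PBS and by Ppbp with cisplatin, 2 higher and 1 lower of 3 with Gp1bb at 0 (56.3 to 58.5 against 70.7 to 75.5 FPKM). Under pan-leukocyte and Y-linked scaling in turn the higher markers were 9 and 7 of 12 for neutrophils, 4 and 3 of 6 for mast cells and basophils, 3 and 1 of 4 for dendritic cells, 5 and 2 of 5 for B cells and 2 and 2 of 3 for platelets. The lower markers of these types, in the same order, were 1 and 3, 1 and 1, 1 and 1, 0 and 0, and 1 and 1. Under both, 0 of 5 eosinophil and 0 of 2 T and NK cell markers were higher, and 10 of 11 ID8 and mesothelial markers were lower. Among all tested genes 6.86% and 3.71% were higher under these scalings, and 75.1% and 82.6% lower. The part of these markers in the results on the 10 genes was not tested.

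At an adjusted p under 0.05, 2 of the 8 tested genes of the set were higher and 5 lower under pan-leukocyte scaling (all genes 6.86% and 75.1%). Under Y-linked scaling 1 was higher and 6 lower (all genes 3.71% and 82.6%). Each of these scalings multiplies all genes of a library by 1 factor, so that the places of the genes relative to each other and to the median of all genes are nearly fixed by construction. Under quantile normalisation the median of all tested genes moved to 0.10.

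**Figure D4:**
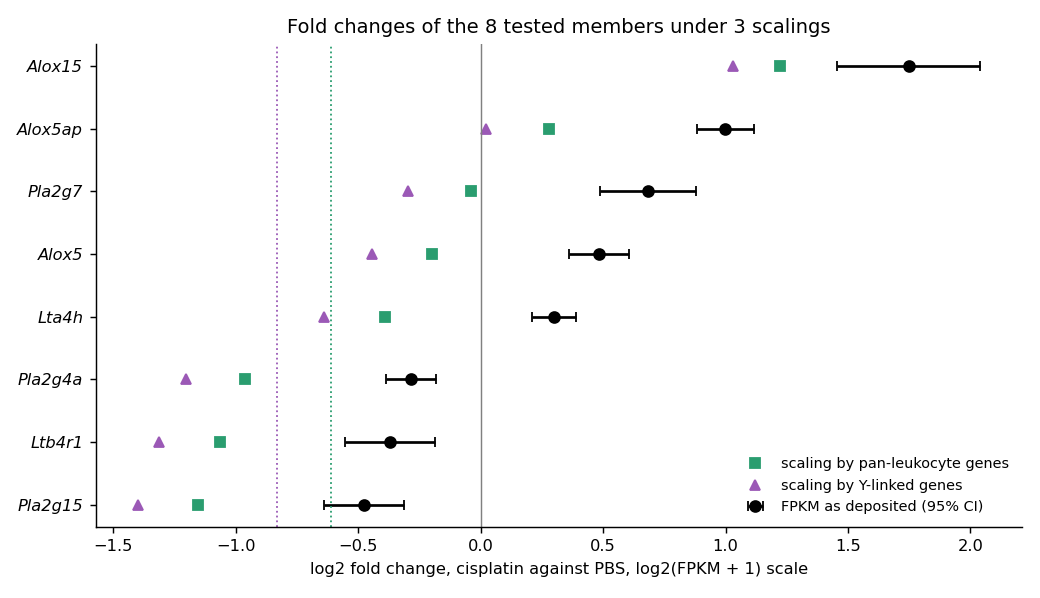
Log2 fold change, cisplatin against PBS (horizontal axis), of the 8 tested genes with FPKM as deposited (black, bars are the 95% confidence interval), after pan-leukocyte scaling (green squares) and after Y-linked scaling (purple triangles); dotted lines mark the median of all genes under each scaling. Pla2g7, Alox5 and Lta4h are positive as deposited and negative under both scalings, and Alox15 is above 1 in each; each scaling multiplies all genes of a library by 1 factor.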

How the data were processed

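The data were 6 RNA libraries from ID8 and BMDM co-culture (3 cisplatin, 3 PBS). The authors deposited 1 gene table whose values are FPKM; per the labels reads were processed with fastp, HISAT2 2.0.5 and featureCounts 1.5.0-p3 on mm10, while the study's methods name another aligner, and the strand setting is not given in the sources used here. FPKM times gene length gave whole reads for 100% of values under 200 reads (within 0.05 reads), and 15776238 to 17924686 reads per library; the FPKM denominators were 97.4 to 104% of these sums. Groups came from the labels. Genes were fitted with limma 3.58.1 (R 4.3.3, trend) on log2(FPKM + 1) over all 13441 genes with at least 1 FPKM in 3 libraries, with Benjamini-Hochberg adjustment, and the script was tested on simulated data. Libraries correlated at r of 0.984 to 0.989 within groups and 0.871 to 0.877 between them, across genes. Ratios of paired genes were compared by exact permutation over libraries. The members and lists were chosen with earlier results of these data known. Named from the wider pathway were, in each role, the called genes (at most 4) or else the most abundant. Named from marker lists were the marker most abundant over all libraries and all macrophage markers. Genes that led in only 1 group, stood out as an exception (Mgll) or passed the filter through 1 group only were named after their values were seen. A symbol on 2 rows kept the row with the higher mean. The alternatives were 20 planned settings, including scaling, filter, pseudocount, voom, a replicate block and each library left out, and 1 added later.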

Additional observations from a re-analysis of the deposited data

How the results depend on the processing

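As deposited, 628 genes were called higher and 1514 lower, 1 and 0 of them in the set (Alox15), and 2 and 6 in the wider pathway. Scaling by pan-leukocyte genes gave 137 and 3548 genes, 2 lower in the set (Ltb4r1, Pla2g15), and 1 and 20 in the pathway. By adjusted p alone the set then had 2 higher and 5 lower (all genes 6.86% and 75.1%). Scaling by Y-linked genes gave 85 and 5181 genes, 3 lower in the set (with Pla2g4a), and 1 and 24 in the pathway. By adjusted p the set had 1 higher and 6 lower (all genes 3.71% and 82.6%). Under these 2 scalings in turn Pla2g7 was -0.038 and -0.30, Alox5 -0.20 and -0.44, and Lta4h -0.39 and -0.64 in log2; the cause was not tested. The call of Alox5ap, at 0.999 as deposited, was gained with a pseudocount of 0.1, median-of-ratios scaling, TPM rescaling, quantile normalisation, scaling by recovered reads and both voom fits, which made 2 set genes called higher in each. The pseudocount of 0.1 called 973 genes higher. Voom called 1227 genes higher, 4 of them in the pathway; voom with at least 10 reads in 3 libraries, added after seeing the data, called 1717 higher and 2464 lower, 7 of the former in the pathway. Without the fold threshold 4424 and 4721 genes, 5 and 3 of the set, and 16 and 23 of the pathway were called. With each library left out in turn, genes called higher ranged from 622 to 671 and lower from 1513 to 1531, pathway genes lower from 6 to 7, and set genes higher from 1 to 2, the higher value without cisplatin replicate 1 or PBS replicate 1 (Alox5ap); the log2 ratio difference ranged from 0.47 to 0.54 for Alox5ap to Alox5 and from 0.75 to 1.41 for Cysltr1 to Ltb4r1. Samples of the same number correlated in their deviations at -0.10, -0.086 and -0.024, so the numbers were not read as pairs; with a replicate block 625 genes were called higher and 1515 lower, Alox15 had 1.75 (limma adjusted p = 0.00024), and no call in the set changed. A ratio of Ltc4s to Lta4h was not computed because Ltc4s had 0 reads in PBS replicate 3. At 0 to 8 reads for Ltc4s and 31 to 96 for Cysltr1, both genes rest on few reads, and the part of depth in their results was not tested.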
